A study of Mus musculus with 68 samples.

Results

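Motor neurons carrying an inducible Klf6 transgene were compared with YFP control motor neurons of the same batches, as numbered in the array titles. The arrays described are 5 of the 68 of the series, chosen by their titles: 2 Klf6 arrays, 1 in batch 2 and 1 in batch 3, and 3 YFP arrays of the CD2 reporter, 1 in batch 2 and 2 in batch 3. All cells came from mouse embryonic stem cells (C57/BL6, as labelled) grown as embryoid bodies, which were exposed on day 2 to a Smoothened agonist together with retinoic acid and dissociated on day 5. Motor neurons were then enriched magnetically through a CD2 transgene read out on their surface, plated on matrigel and treated with doxycycline to induce Klf6 in the Klf6 line and YFP in the control line during 30 h of culture. The YFP cells therefore had the same agonists, sort and doxycycline. The fitted Klf6 minus YFP difference also gave weight to the YFP array of batch 1 (-0.18) and to 6 arrays of the Klf5, Sfmbt2 and Pou3f1 lines (0.06 or -0.06 each), which link batches 1 and 2. Whether either line was a single clone, and whether each array had its own culture, is not stated in the labels, so the spread behind the p-values may be technical.

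Klf6 is a zinc-finger transcription factor of the Kruppel-like family, whose members bind GC-rich and CACCC-type DNA in promoters. In the mammalian nervous system Klf6 and its close relative Klf7 are known as factors that favour axon growth, and in zebrafish they are needed for regrowth of retinal axons. Phrenic motor neurons, the cells for which the series was screened, innervate the diaphragm and are marked by Pou3f1, cervical Hox genes and a set of adhesion molecules.

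The cells kept a motor neuron profile on all 5 arrays. Isl1, the LIM homeodomain factor of motor neurons, read 12.82 and 12.65 (log2 signal) on the Klf6 arrays and 12.69, 12.46 and 12.66 on the YFP arrays. Slc18a3, the vesicular acetylcholine transporter, read 13.08 and 12.99 in Klf6 cells and 12.80, 13.03 and 13.17 in YFP cells. None of 15 general motor neuron genes differed at an adjusted p under 0.05 by limma (median difference 0.06 on the log2 scale, against -0.0048 over all 19938 genes). Array medians over genes were 8.21 and 8.24 in Klf6 and 8.21 to 8.28 in YFP. Across genes the 2 Klf6 arrays correlated at 0.990, a Klf6 array and a YFP array at 0.986 to 0.992, and YFP arrays among themselves at 0.987 to 0.991, so that arrays of a line were no more alike than arrays of different lines.

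The Klf6 transcript itself was not raised. Its transcript cluster read 10.07 in batch 2 and 10.07 in batch 3 of the Klf6 line, against 10.30 in batch 2 and 10.23 and 10.44 in batch 3 of YFP. Both Klf6 arrays lay below all 3 YFP arrays. The fitted difference was -0.32 ± 0.12 (standard error; adjusted p = 0.232 by limma), and against the 13 other CD2 lines that had an array in batch 2 or 3 it was -0.28 ± 0.10 (adjusted p = 0.116). In the Klf5 line, by comparison, the Klf5 transcript was raised: the Klf6 minus Klf5 line difference was -2.97 ± 0.15 for that gene. The sources used here do not give the part of the Klf6 transcript that the transgene held, so whether the probes would report it is not known. Whether the transgene was induced in these cells was not tested. The arrays therefore give no check of the induction, and "Klf6 line" below means the arrays labelled so.

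Against YFP, 119 genes rose (0.597% of 19938 tested) and 87 fell (0.436%) at an adjusted p under 0.05. The difference was modest for most: 12 of the rises and 6 of the falls reached 2-fold. All 206 had the same sign of difference in batch 2 and batch 3, as 47.3% of all genes did, but the calls were made on an average of these same differences, which nearly fixes the sign. Both Klf6 arrays lay above all 3 YFP arrays for 108 of the 119, a separation that 8.25% of all genes showed. They lay below all 3 for 80 of the 87, a separation that 8.80% of all genes showed. These separations too use the values behind the calls, so they add no separate support. The test borrowed its estimate of spread from 59 arrays of 30 groups in the batches other than 4. The number of calls depended on the arrays in the fit: with all 68 arrays it was 94, with the CD2 arrays of batches 1 to 3 alone it was 9, and with only the 5 arrays it was 0 by limma (800 at an unadjusted p under 0.05, against 2503 in the 59-array fit). The 5-array fit had 2 residual degrees of freedom, against 24, and also lacked the YFP array of batch 1, without which the 59-array count was 122. Which of these changes lowered the count was not tested. Over all genes the difference in batch 2 and that in batch 3 correlated at 0.05 (Pearson's r across genes, which are not independent replicates), and their standard deviations, 0.28 and 0.27, were below the 0.34 between the 2 YFP arrays of batch 3.

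**Figure D1:**
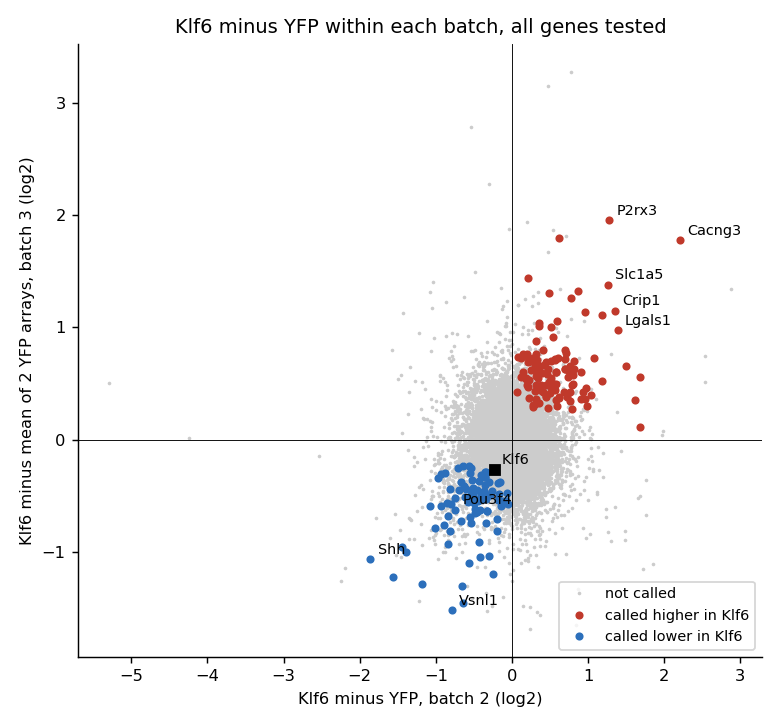
Difference between Klf6 and YFP (log2) in batch 2 on the horizontal axis (1 array each) and in batch 3 on the vertical axis (1 Klf6 array minus the mean of 2 YFP arrays), 1 point per gene, with called rises in red, called falls in blue and Klf6 as a black square. The called genes lie in the upper right and lower left of the plot, while the cloud of all genes has no slope (r = 0.05).

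Of the 206 calls 9 held with the 59 arrays, with all 68 and with the CD2 arrays of batches 1 to 3, and none of these 9 held with the 5 arrays alone (adjusted p from 0.321 to 0.538). They were Crip1, Slc1a5, Lgals1, Dazl, Dysf, Insl6 and Cpeb1, which rose, and Arg2 and Pou3f4, which fell. Crip1, a small LIM-domain protein rich in cysteine, had the lowest adjusted p. It read 9.35 in batch 2 and 9.79 in batch 3 of the Klf6 line, against 8.00 in batch 2 and 8.71 and 8.56 in batch 3 of YFP. Both Klf6 arrays stood above every YFP array and above every other CD2 array of their batch (9 arrays in batch 2 and 15 in batch 3). The rise was 2.40-fold (1.27 ± 0.12 on the log2 scale, adjusted p = 5.58e-07), and against the other 13 lines it was 1.27 ± 0.10 (adjusted p = 8.11e-09).

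Slc1a5 encodes ASCT2, an exchanger of glutamine and other neutral amino acids. It read 10.25 and 9.75 in Klf6 cells, against 8.99, 8.54 and 8.20 in YFP cells, with no overlap. It rose 2.82-fold (1.50 ± 0.19, adjusted p = 5.54e-05). Cpeb1, which binds polyadenylation elements of messenger RNAs, read 8.79 and 9.07 in Klf6 cells and 8.19, 8.40 and 8.28 in YFP cells. It rose 1.59-fold (0.67 ± 0.09, adjusted p = 0.000118). Pou3f4, a POU-domain factor of the same class as the phrenic gene Pou3f1, went the other way: it read 10.80 and 11.10 in Klf6 cells, against 11.55, 11.79 and 11.66 in YFP cells. It fell by 0.72 ± 0.10 on the log2 scale (1.65-fold, adjusted p = 0.000261), and both Klf6 arrays were the lowest of their batch. Crip1, Slc1a5, Cpeb1 and Pou3f4 were the only 4 of the 206 whose call held when each of the 2 Klf6 and 4 YFP arrays of the CD2 reporter was left out in turn (highest adjusted p 0.00166, 0.0155, 0.0216 and 0.0352).

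Of these 4 genes, the RefSeq promoter table held Crip1, Cpeb1 and Pou3f4. Their windows from 250 bases before to 50 after the start (GRCm38.p6) are shown because they belong to the best supported rises and fall, and because the motifs of the Kruppel-like and Sp families can be read in them. Capitals mark CACCC and GGGCGG on either strand (GGGTG and CCGCCC on the other), which can overlap. Crip1 lies at chr12:113151762-113152061 (plus strand), Cpeb1 at chr7:81454709-81455008 (minus strand) and Pou3f4 at chrX:110814129-110814428 (plus strand).
Crip1: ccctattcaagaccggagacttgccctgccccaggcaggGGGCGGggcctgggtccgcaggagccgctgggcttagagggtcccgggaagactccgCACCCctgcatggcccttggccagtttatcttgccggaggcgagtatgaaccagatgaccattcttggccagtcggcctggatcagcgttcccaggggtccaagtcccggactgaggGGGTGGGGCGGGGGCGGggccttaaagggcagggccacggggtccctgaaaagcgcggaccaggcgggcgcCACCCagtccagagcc
Cpeb1: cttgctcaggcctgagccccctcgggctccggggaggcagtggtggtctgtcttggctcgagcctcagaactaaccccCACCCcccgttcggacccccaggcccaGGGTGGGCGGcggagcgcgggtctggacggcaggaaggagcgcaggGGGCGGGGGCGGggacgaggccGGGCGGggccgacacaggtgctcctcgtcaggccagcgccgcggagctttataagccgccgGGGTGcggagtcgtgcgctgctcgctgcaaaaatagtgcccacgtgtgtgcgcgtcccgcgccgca
Pou3f4: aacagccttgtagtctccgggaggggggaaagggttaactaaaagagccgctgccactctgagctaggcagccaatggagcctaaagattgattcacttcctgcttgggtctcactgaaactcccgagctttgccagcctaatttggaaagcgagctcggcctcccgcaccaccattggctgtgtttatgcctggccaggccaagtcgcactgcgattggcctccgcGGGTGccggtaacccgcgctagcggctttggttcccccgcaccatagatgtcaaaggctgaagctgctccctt
The Crip1 window held 3 CACCC and 3 GGGCGG matches, the Cpeb1 window 3 and 4, and the Pou3f4 window 1 and 0. With 1 window per gene, 89 of the 119 genes that rose and 69 of the 87 that fell had a window. GGGCGG was found in 68 of the 89 that rose (76.4%), in 36 of the 69 that fell (52.2%) and in 7785 of 15614 tested genes (49.9%). CACCC was found in 68 of the 89 that rose (76.4%), in 40 of the 69 that fell (58.0%) and in 9378 of the 15614 (60.1%). Among the 32851 windows of the table, including alternative starts, the shares were 35.7% for GGGCGG and 57.5% for CACCC. These are matches of letters and were not tested as sites. The shares were not compared by a test, and the tested genes were not matched to the called genes in signal or base content.

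Lgals1, galectin-1, a secreted lectin that binds beta-galactosides, rose as well. It read 13.14 and 13.04 in Klf6 cells, against 11.76, 11.89 and 12.23 in YFP cells, a 2.32-fold difference (1.21 ± 0.23, adjusted p = 0.00734). Without the batch 2 Klf6 array its adjusted p was 0.150. Against the other 13 lines the difference was 1.46 ± 0.20 (adjusted p = 8.52e-05). Dysf, dysferlin, a protein of plasma membrane repair in muscle, read 10.00 and 9.62 in Klf6 cells and 8.93, 8.81 and 8.98 in YFP cells, and rose by 0.91 ± 0.13 (adjusted p = 0.000261, and 0.05003, just short of the threshold, without the batch 2 Klf6 array). Insl6, an insulin-like peptide gene, read 7.03 and 7.77 in Klf6 cells, against 6.44, 6.64 and 6.79 in YFP cells (0.86 ± 0.13, adjusted p = 0.000457, and 0.111 without the batch 3 Klf6 array). Dazl, an RNA-binding protein of germ cells, read 7.02 and 6.33 in Klf6 cells and 5.52, 5.55 and 5.81 in YFP cells (1.05 ± 0.20, adjusted p = 0.00715, and 0.245 without the batch 2 Klf6 array). All 4 genes were above every YFP array on both Klf6 arrays. Dazl was dim, with a mean of 5.73 over the arrays of the fit, under the mean of 6 used to omit dim genes. Its Klf6 array was the highest CD2 array in batch 2. In batch 3 it ranked 3 of 15, where another line reached 6.655.

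**Figure D2:**
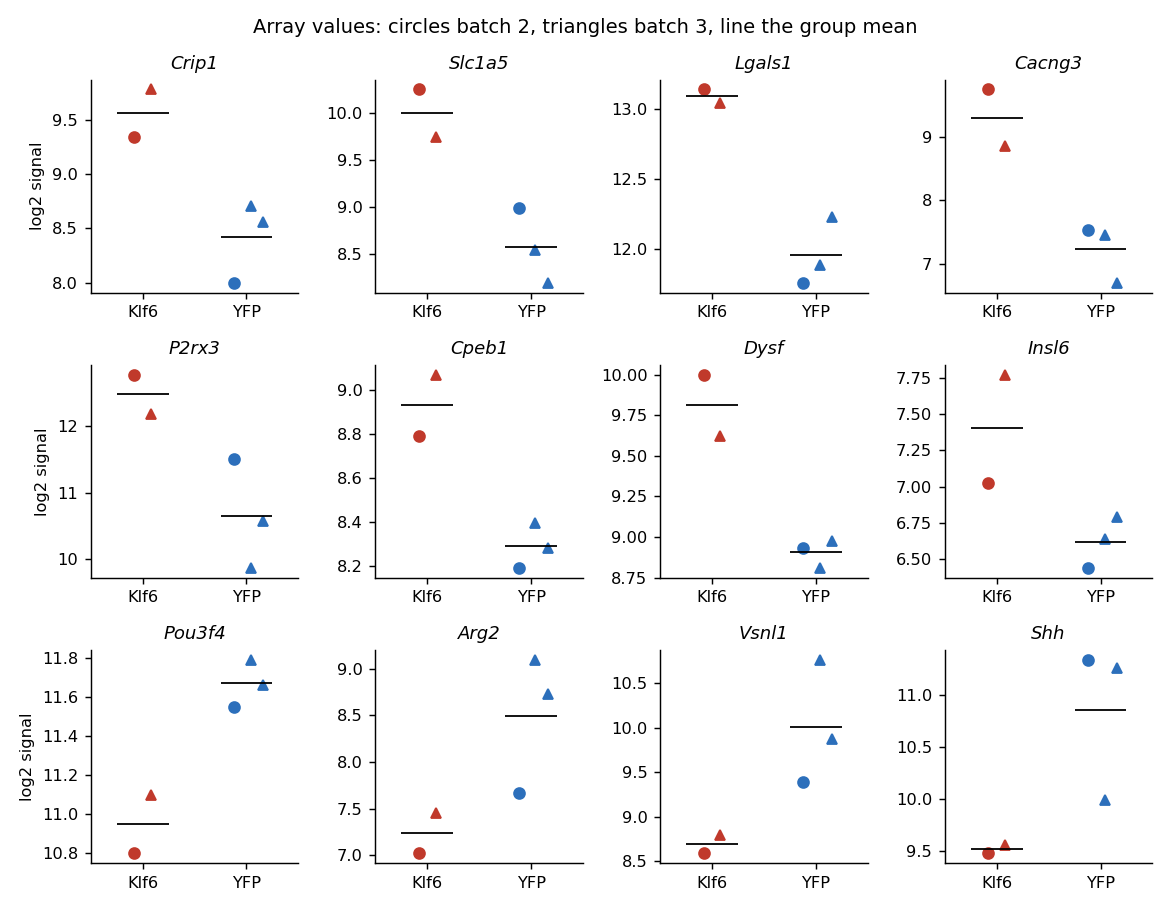
Log2 signal of 12 genes on the 2 Klf6 arrays (red, left) and the 3 YFP arrays (blue, right), with circles for batch 2, triangles for batch 3 and a line at each group's mean; the vertical axis differs between panels. In each of the 12 panels the red points lie entirely above or entirely below the blue ones, as for Crip1 (9.35 and 9.79 against 8.00 to 8.71).

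The 2 largest called rises were those of Cacng3 and P2rx3. Cacng3, an auxiliary subunit of AMPA-type glutamate receptors, read 9.74 and 8.86 in Klf6 cells, against 7.54, 7.46 and 6.70 in YFP cells. It rose 4.06-fold (2.02 ± 0.40, adjusted p = 0.00979; 0.0631 with all 68 arrays and 0.135 without the batch 2 Klf6 array). P2rx3, the ATP-gated channel best known from sensory neurons, read 12.78 and 12.18 in Klf6 cells and 11.51, 9.86 and 10.58 in YFP cells. It rose 3.44-fold (1.78 ± 0.42, adjusted p = 0.0335; 0.131 with all 68 arrays and 0.346 without the batch 3 Klf6 array). The Klf6 arrays did not overlap with YFP for either gene, and P2rx3 was higher on the Klf6 array than on any other CD2 array of each batch. Cacng3 was so in batch 3 only: in batch 2 it ranked 2 of 9, where another line reached 9.88. A further ATP-gated channel gene, P2rx4, rose by 0.72 ± 0.13 (9.18 and 9.15 against 8.48, 8.20 and 8.55 in YFP; adjusted p = 0.00552, and 0.135 without the batch 3 Klf6 array); it was named after its values were seen. Other large rises were those of Angpt1, a ligand of the endothelial Tie2 receptor (1.24 ± 0.22, adjusted p = 0.00467), and Trim66, a tripartite-motif chromatin protein (1.20 ± 0.22, adjusted p = 0.00549). Angpt1 read 8.09 and 7.64 in Klf6 cells and 6.91, 6.28 and 6.77 in YFP cells, but in batch 3 it was higher on 3 other arrays than on the Klf6 array. Both lost the call without a Klf6 array: Angpt1 without that of batch 2 (adjusted p = 0.0901) and Trim66 without that of batch 3 (0.153).

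Further amino acid transporters stood among the rises, Slc1a4 and Slc7a1 in the 10 largest. Slc1a4, the neutral amino acid carrier ASCT1, read 11.69 and 11.60 in Klf6 cells, against 11.08, 9.59 and 10.01 in YFP cells (1.34 ± 0.34, adjusted p = 0.0497). Slc7a1, a carrier of arginine and lysine, read 12.04 and 11.65 in Klf6 cells, against 11.27, 10.34 and 10.44 in YFP cells (1.13 ± 0.26, adjusted p = 0.0297). Slc7a5, the large neutral amino acid carrier LAT1, read 13.52 and 13.42 in Klf6 cells, against 13.03, 12.04 and 12.19 in YFP cells (1.03 ± 0.25, adjusted p = 0.0384). For these 3 genes no YFP array reached a Klf6 array, and the YFP array of batch 2 was well above those of batch 3. Of 15 measured genes of the stress and apoptosis list 2 rose (median of the list 0.27), where 0.597% of all genes rose. The batches differed: within batch 2 only 4 of the 15 were higher than YFP (median -0.08), and within batch 3 it was 13 (median 0.69). Atf4, the factor that drives amino acid synthesis and uptake genes when amino acids run short, rose by 0.75 ± 0.17 (9.95 and 10.10 against 9.59, 9.05 and 9.06 in YFP, adjusted p = 0.0293). Trib3, a pseudokinase induced by that factor, rose by 0.78 ± 0.19 (8.89 and 8.73 against 8.54, 7.66 and 7.77 in YFP, adjusted p = 0.0427).

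Because these genes share a known programme, 40 genes of the amino acid and integrated stress response were listed after the values had been seen, and the list was given no test. Of 38 measured, 6 rose and none fell against YFP (0.597% of all genes rose). These 6 are Slc1a5, Slc1a4, Slc7a1, Slc7a5, Atf4 and Trib3, the genes named above that prompted the list. Their share is therefore no separate support, and no further member was called. The median difference was 0.63, and 21 members were above all 3 YFP arrays on both Klf6 arrays (8.25% of all genes were). Members that missed the threshold include Slc7a3, an arginine and lysine carrier (2.31 ± 0.69, adjusted p = 0.103), Cth, an enzyme of cysteine synthesis (2.03 ± 0.57, adjusted p = 0.0762), and Asns, asparagine synthetase (0.66 ± 0.18, adjusted p = 0.0762). Ddit3, the stress factor CHOP, was at 0.52 ± 0.16 (adjusted p = 0.131), and it overlapped with YFP, at 9.26 and 9.59 in Klf6 cells and 9.44, 8.71 and 8.57 in YFP cells.

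The level of this programme moved with batch and with arrays of other lines. The mean of the 38 genes was 10.99 in batch 2 and 11.01 in batch 3 of the Klf6 line, against 10.78 in batch 2 and 9.88 and 9.99 in batch 3 of YFP. In batch 2 the 7 arrays of other lines lay between 10.38 and 10.86. In batch 3, 3 arrays of other lines, replicate 1 of Tox, of Vwc2 and of Btbd3, stood at 10.88, 10.83 and 10.70, while replicate 2 of the same 3 lines stood at 9.98, 9.81 and 9.97 and the remaining arrays of other lines between 9.65 and 9.96. The Klf6 array of batch 3 thus lay with 3 arrays that differed from their own replicates by 0.73 to 1.02. Within batch 2 the median difference of the 38 genes between Klf6 and YFP was 0.22, and within batch 3 it was 1.01. Without the batch 3 Klf6 array Slc1a4 (adjusted p = 0.624), Slc7a1 (0.345), Slc7a5 (0.529), Atf4 (0.609) and Trib3 (0.578) lost their calls. The part of these array differences in the result was not tested. For Slc1a5 the difference was 1.26 in batch 2 and 1.38 in batch 3, and its highest value on any other line was 9.44 in batch 2 and 9.16 in batch 3, below the Klf6 arrays of those batches.

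**Figure D3:**
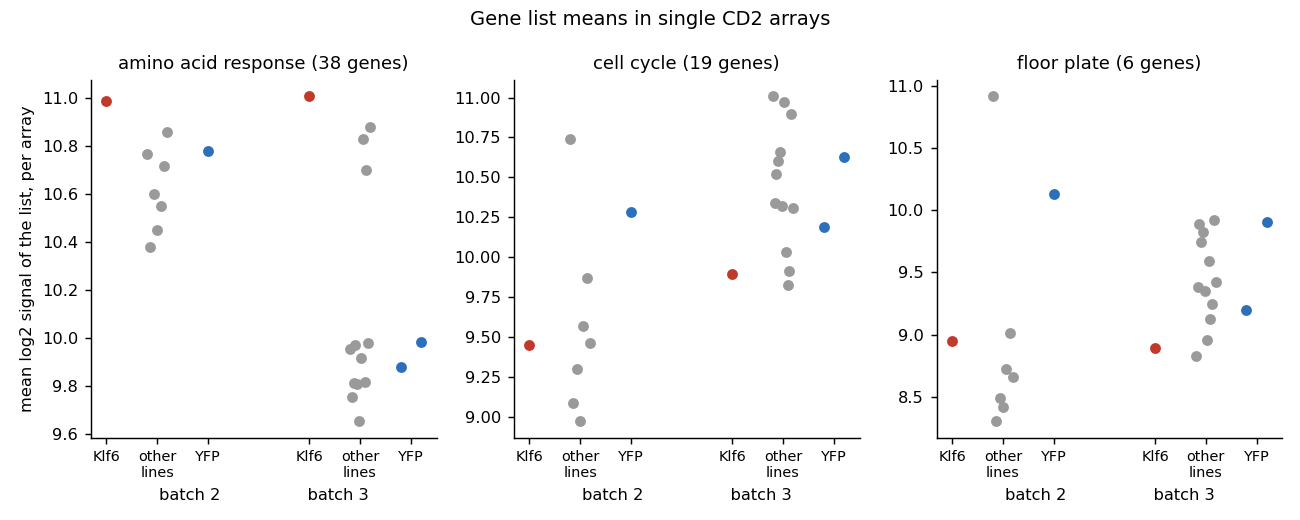
Mean log2 signal of 38 amino acid response genes, 19 cell cycle genes and 6 floor plate genes on each CD2 array of batches 2 and 3, with Klf6 in red, other lines in grey and YFP in blue. The amino acid response mean of the Klf6 arrays was 10.99 and 11.01, the highest of each batch, and in batch 3 the other arrays fall into a low group near the YFP arrays (9.88 and 9.99) and 3 arrays at 10.70 to 10.88.

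Among the falls, Vsnl1, a neuronal calcium sensor, was the largest. It read 8.59 and 8.79 in Klf6 cells, against 9.39, 10.76 and 9.88 in YFP cells, and fell by 1.51 ± 0.28 (2.84-fold, adjusted p = 0.00671; 0.111 without the batch 3 Klf6 array). Arg2, the mitochondrial arginase, read 7.02 and 7.45 in Klf6 cells, against 7.66, 9.10 and 8.72 in YFP cells, and fell by 1.25 ± 0.18 (2.38-fold, adjusted p = 0.000455; 0.0855 without the batch 3 Klf6 array). Both were lower on the Klf6 array than on any other CD2 array in each batch. Kcnk9, a background potassium channel, read 10.49 and 10.71 in Klf6 cells, against 11.68, 11.58 and 12.41 in YFP cells (a fall by 1.28 ± 0.28, adjusted p = 0.0192). Plppr5, a membrane protein related to phospholipid phosphatases, read 8.72 and 8.83 in Klf6 cells and 9.37, 10.51 and 9.77 in YFP cells (a fall by 1.07 ± 0.17, adjusted p = 0.00162). Cdr1os, the transcript opposite to Cdr1, fell by 0.89 ± 0.20 (adjusted p = 0.0209). Chrm2, the M2 muscarinic receptor, fell by 0.97 ± 0.24 (adjusted p = 0.0387), but its arrays overlapped, at 8.72 and 9.99 in Klf6 cells and 9.55, 11.13 and 10.72 in YFP cells. Without 1 of the Klf6 arrays Kcnk9, Plppr5, Cdr1os and Chrm2 also lost their calls (highest adjusted p 0.207, 0.156, 0.165 and 0.250). Against the 13 other lines the Chrm2 difference was -0.16 ± 0.20 (adjusted p = 0.739).

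Some genes of synaptic receptors and their scaffolds fell as well. These gene families were picked after the values had been seen and carry no test of their own. Of 15 ionotropic glutamate receptor genes 2 fell: Gria3, an AMPA receptor subunit, by 0.68 ± 0.13 (11.11 and 10.84 against 11.66, 11.68 and 11.51 in YFP, adjusted p = 0.00715) and Grik2, a kainate receptor subunit, by 0.50 ± 0.10 (adjusted p = 0.0129). Of 16 GABA-A receptor genes 1 fell, Gabrb2, by 0.71 ± 0.15 (adjusted p = 0.0177). Over all genes 0.436% fell. Cacng7, a further AMPA receptor auxiliary subunit, fell by 0.70 ± 0.13 (adjusted p = 0.00552), in the opposite direction to Cacng3, but overlapped with YFP, at 11.55 and 10.59 in Klf6 cells and 11.98, 11.78 and 11.24 in YFP cells. Shank1, a scaffold of the postsynaptic density, fell by 0.78 ± 0.13 (7.98 and 8.17 against 8.82, 9.14 and 8.57 in YFP, adjusted p = 0.00193). The medians of the glutamate and GABA-A receptor families, -0.09 and -0.20, were small beside these members. Of 17 genes of the synaptic and mature neuron list none passed the test. All 5 of these calls were lost without 1 of the Klf6 arrays (adjusted p from 0.0705 for Shank1 to 0.407 for Grik2).

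Shh and Ferd3l, both floor plate genes, fell in the Klf6 line against YFP. The floor plate is the ventral midline of the neural tube, a source of Shh and a cell type that the ventralising culture can also form. Of 6 measured markers 2 fell and none rose, with a median of -0.79. Over all genes 0.436% fell and 0.597% rose. Shh read 9.48 and 9.56 in Klf6 cells, against 11.34, 9.99 and 11.26 in YFP cells (a fall by 1.24 ± 0.27, adjusted p = 0.0208). Ferd3l, a basic helix-loop-helix factor of the floor plate, read 7.25 and 7.08 in Klf6 cells and 8.69, 7.64 and 8.44 in YFP cells (a fall by 0.95 ± 0.22, adjusted p = 0.0293). Foxa2 was at -0.90 ± 0.24 (adjusted p = 0.0564) and Spon1, F-spondin, at -0.69 ± 0.29 (adjusted p = 0.303). Ntn1, netrin-1, was at -0.30 ± 0.28 (adjusted p = 0.732) and Corin, a transmembrane protease, at -0.11 ± 0.15 (adjusted p = 0.840). The mean of the 6 markers was 8.94 and 8.89 in the Klf6 arrays, against 10.13, 9.20 and 9.90 in the YFP arrays. On the YFP array of batch 1, which also had weight in the fit, it was 8.76, with Shh at 10.05 and Ferd3l at 7.21. The other lines ranged from 8.30 to 10.92 in batch 2 and from 8.83 to 9.92 in batch 3, so the Klf6 arrays lay inside the range of the other lines, while the YFP array of batch 2 and the second of batch 3 were each the second highest of their batch. Against those lines neither Shh nor Ferd3l passed the test (Shh -0.66 ± 0.23, adjusted p = 0.105, and Ferd3l -0.42 ± 0.19, adjusted p = 0.227). Both calls were lost with all 68 arrays (adjusted p = 0.126 and 0.180). In bulk RNA, fewer floor plate cells and less RNA per cell cannot be told apart.

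No cell cycle gene passed the test against YFP. All 19 measured genes had a negative difference, with a median of -0.50 and the lowest adjusted p at 0.123, for Mcm5, a subunit of the replicative helicase (-0.83 ± 0.26). The list mean was 9.45 and 9.89 in Klf6, against 10.28, 10.19 and 10.63 in YFP. The YFP array of batch 1, a batch without a Klf6 array, had weight in the fit and was at 9.33. Other lines ranged from 8.97 to 10.74 in batch 2, where Klf6 ranked 6 of 9 from the top, and from 9.83 to 11.01 in batch 3, where it ranked 14 of 15. Replicate 1 of Btbd3, Tox and Vwc2, the arrays that lay with the batch 3 Klf6 array in the amino acid response, read lower than replicate 2 of the same line by 0.59 to 0.69 in the cell cycle mean and by 0.24 to 0.50 in the floor plate mean. The means of the lists did not move together on every array: the Notch1 ICD (30) arrays of batch 3 were the highest in cell cycle genes (11.01 and 10.97) and among the 3 lowest in floor plate markers (8.83 and 8.96). The part of these array differences in the falls was not tested. Igfbp3, an insulin-like growth factor binding protein (8.36 and 8.40 in Klf6 cells, against 9.92, 9.05 and 10.21 in YFP cells), and Lpl, lipoprotein lipase (7.12 and 7.02 in Klf6 cells, against 8.50, 7.92 and 8.13 in YFP cells), fell by 1.13 ± 0.26 and 0.97 ± 0.22 (adjusted p = 0.0289 and 0.0208), and these calls too were lost with all 68 arrays (adjusted p = 0.202 and 0.178). On the YFP array of batch 1 Igfbp3 read 8.35 and Lpl 7.30. Of the 8 other marker lists none had a called gene, with medians from -0.07 to 0.10. These lists are pluripotency, epithelium, neural crest, mesodermal and vascular cells, macroglia, progenitors with radial glia, ventral interneurons, and dorsal or sensory neurons.

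**Figure D4:**
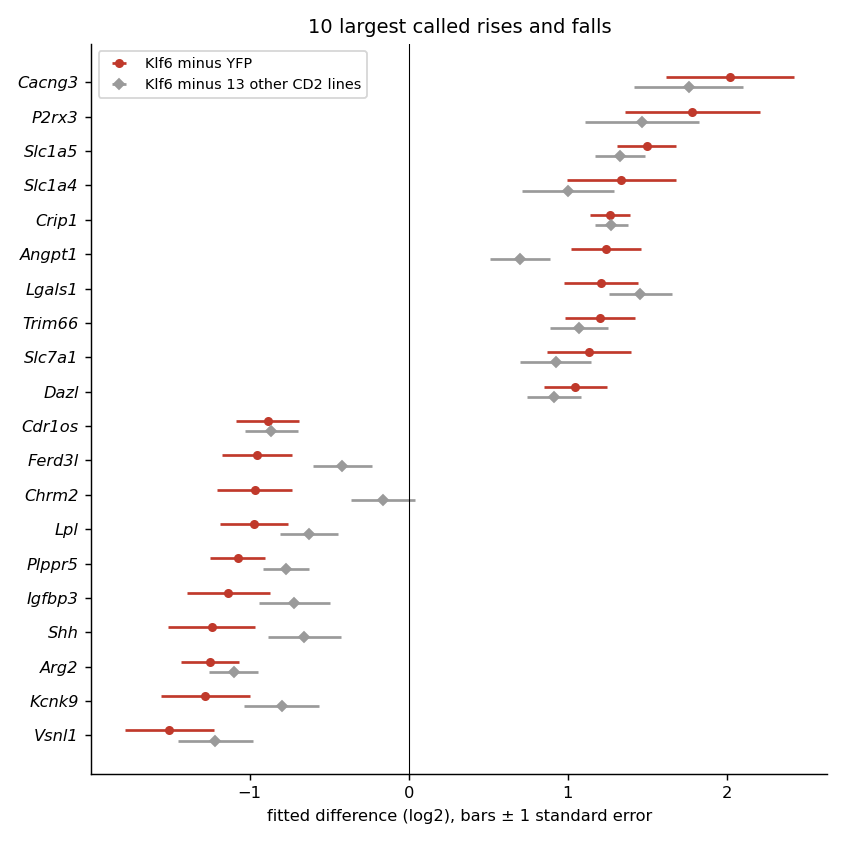
Fitted log2 difference with its standard error for the 10 largest called rises and 10 largest called falls, for Klf6 minus YFP (red circles) and Klf6 minus the mean of 13 other CD2 lines (grey diamonds). Every gene shown has the same sign in the 2 comparisons, and Crip1 is at 1.27 in each. Falls nearer to 0 against the other lines include Chrm2 (-0.97 and -0.16), Shh (-1.24 and -0.66) and Ferd3l (-0.95 and -0.42). Kcnk9 (-1.28 and -0.80), Igfbp3 (-1.13 and -0.72), Lpl (-0.97 and -0.63) and Plppr5 (-1.07 and -0.77) are nearer to 0 as well. Most rises are nearer to 0 too: Angpt1 (1.24 and 0.70), Slc1a4 (1.34 and 1.00), P2rx3 (1.78 and 1.47) and Cacng3 (2.02 and 1.76). The same holds for Slc7a1 (1.13 and 0.93), Slc1a5 (1.50 and 1.33), Dazl (1.05 and 0.91) and Trim66 (1.20 and 1.07). Lgals1 (1.21 and 1.46) lies farther from 0.

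No phrenic motor neuron gene passed the test in the Klf6 line, of 12 measured, and their differences ran from -0.83 to 0.01 with a median of -0.27. Pou3f1, the POU factor of phrenic neurons, read 8.44 and 8.45 in Klf6 cells and 8.41, 8.69 and 8.40 in YFP cells (-0.05 ± 0.14, adjusted p = 0.927). The cervical Hox genes Hoxa5 (-0.29 ± 0.21), Hoxc4 (-0.48 ± 0.20) and Hoxc5 (-0.83 ± 0.28) had adjusted p of 0.628, 0.272 and 0.166. Hoxc5 overlapped between lines, at 8.06 and 8.68 in Klf6 cells and 8.65, 10.36 and 9.60 in YFP cells. The adhesion genes Alcam (-0.50 ± 0.30), Pcdh10 (-0.56 ± 0.17), Cdh6 (-0.33 ± 0.11), Cdh9 (0.01 ± 0.28), Cdh10 (-0.11 ± 0.16) and Negr1 (-0.23 ± 0.20) had adjusted p from 0.106 to 0.997. The secreted growth factor gene Ptn (-0.22 ± 0.13) and the zinc-finger gene Tshz1 (-0.25 ± 0.16) were at 0.515 and 0.577. Among other patterning and adhesion genes 1 of 14 Hox paralogues 1 to 5 fell, Hoxa3 (-0.43 ± 0.11, adjusted p = 0.0485), and 1 of 29 cadherins and protocadherins, Pcdh19 (-0.54 ± 0.13, adjusted p = 0.0316). Of 40 axon guidance genes 1 rose, Plxnd1, a semaphorin receptor (0.56 ± 0.13, adjusted p = 0.0271). These 3 calls were lost with all 68 arrays (adjusted p = 0.375, 0.377 and 0.155). Over all genes 0.436% fell and 0.597% rose.

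The other members of the Kruppel-like family showed no called change against YFP (17 measured, Klf6 included, median 0.18). Differences were 0.36 ± 0.11 for Klf8 (adjusted p = 0.104), 0.36 ± 0.12 for Klf9 (0.160), 0.34 ± 0.12 for Klf12 (0.200), 0.33 ± 0.11 for Klf16 (0.142) and 0.29 ± 0.12 for Klf5 (0.277). They were -0.23 ± 0.10 for Klf7 (0.332), the closest relative of Klf6, which read 12.60 and 12.17 in Klf6 cells and 12.44 to 12.62 in YFP cells. The remaining 10 (Klf1, Klf2, Klf3, Klf4, Klf10, Klf11, Klf13, Klf14, Klf15 and Klf17) lay between -0.16 and 0.20, with adjusted p from 0.303 up. Against the 13 other lines Klf8 (0.36 ± 0.09, adjusted p = 0.0215) and Klf9 (0.40 ± 0.10, adjusted p = 0.0226) rose, Klf9 being a factor known in rodents to restrain axon growth. Of 30 measured genes of axon growth and regeneration none passed the test against YFP (median 0.04). Gap43, a growth cone protein, read 13.15 and 13.31 in Klf6 cells and 13.10, 13.07 and 12.98 in YFP cells (0.15, adjusted p = 0.469). Of 13 genes reported elsewhere as Klf6 targets none passed the test against YFP either (median -0.01). Against the 13 other lines Atf3, a member of both lists, was called higher, as was Gadd45a of the axon growth list. Over all genes 1.85% rose in that comparison.

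**Figure D5:**
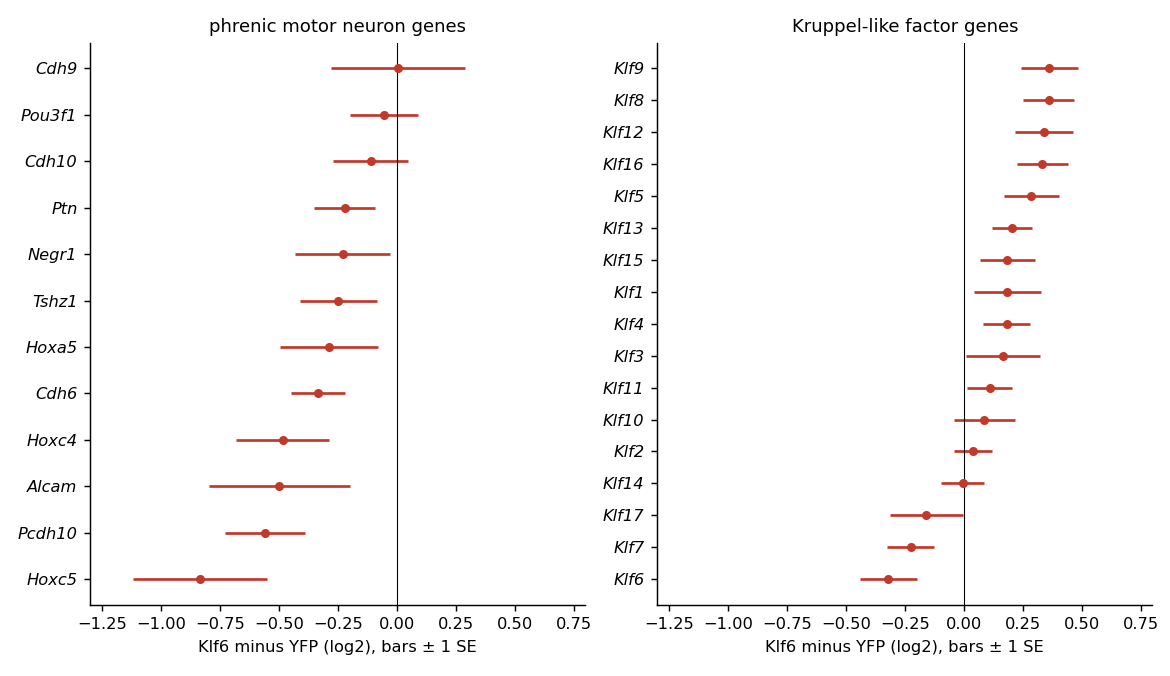
Klf6 minus YFP difference (log2) with its standard error for 12 phrenic motor neuron genes and 17 Kruppel-like factor genes, ordered by size. No gene of either panel passed the test. Hoxc5 (-0.83) and Klf6 (-0.32) are the lowest of their panels.

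The comparison with the 13 other CD2 lines asks whether a difference is seen also against other lines of the screen, which carry other transgenes except for H4, labelled parental. It used the same Klf6 arrays, so it is no independent repeat. Of 19938 genes, 368 rose (1.85%) and 438 fell (2.20%). The batch 3 Klf6 array decided most of that number: without it 68 genes were called. The 3 largest rises were Slc7a3 (2.03 ± 0.59, adjusted p = 0.0446), Cth (1.85 ± 0.48, adjusted p = 0.0236) and Cacng3 (1.76 ± 0.34, adjusted p = 0.00264), and the 3 largest falls were Vsnl1 (-1.22 ± 0.24, adjusted p = 0.0028), Arg2 (-1.10 ± 0.16, adjusted p = 0.000137) and Mir100, the transcript cluster named for a microRNA (-1.02 ± 0.27, adjusted p = 0.0265). Mir100 overlapped between lines, at 7.23 and 6.16 in Klf6 cells and 7.26, 8.22 and 6.51 in YFP cells. The 2 Klf6 arrays were the highest of their batches for 65 of the 119 genes that rose against YFP and the lowest for 51 of the 87 that fell; over all genes 322 were highest and 381 lowest in both batches. The YFP arrays were among the arrays ranked, so these counts use the same values as the calls.

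The Klf5 line allows a comparison of 2 related transgenes. Klf5 arrays were in batches 1 and 2, so the comparison shares only batch 2 and runs through the batch terms otherwise. Of 19938 genes 20 were higher in Klf6 (0.100%) and 27 lower (0.135%). Klf5 itself was at -2.97 ± 0.15 (adjusted p = 7.82e-15), Ccn3, a matricellular protein, at -2.08 ± 0.22 (adjusted p = 7.58e-07) and Rasgrf1, a Ras exchange factor, at -1.78 ± 0.23 (adjusted p = 6.24e-05). Ccn3 and Rasgrf1 did not differ past the threshold between Klf6 and YFP (0.27 ± 0.17 and -0.02 ± 0.19, adjusted p = 0.553 and 0.979). Mgll, monoacylglycerol lipase (1.42 ± 0.25, adjusted p = 0.00411), Kitl, the ligand of the Kit receptor (1.27 ± 0.25, adjusted p = 0.0155), and Dazl (1.14 ± 0.25, adjusted p = 0.0390) were the 3 largest differences in the other direction. Mgll also rose against YFP (9.74 and 9.03 against 8.06, 8.10 and 8.85, 0.94 ± 0.20, adjusted p = 0.0148; 0.0681 with all 68 arrays and 0.330 without the batch 2 Klf6 array), and Kitl did not (0.57 ± 0.20, adjusted p = 0.175). Crip1 was 0.81 ± 0.15 higher in Klf6 than in Klf5 (adjusted p = 0.0150). For Slc1a5 (0.75 ± 0.23, adjusted p = 0.296) and Lgals1 (0.76 ± 0.29, adjusted p = 0.503) a difference between the lines was not shown.

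The difference between the Klf6 line and YFP was also compared between the 2 batches. The batch 3 difference minus the batch 2 difference passed the test for 62 genes (0.311%), 28 of them positive and 34 negative. With all 68 arrays 2 did so and with the CD2 arrays of batches 1 to 3 alone 1. Among the 206 genes called against YFP 1 was in that set, Grb14, an adaptor of the insulin receptor: it read 9.61 and 8.93 in Klf6 cells, against 7.93, 8.94 and 8.70 in YFP cells, so that its rise (0.77 ± 0.19, adjusted p = 0.0401) came from batch 2, where the difference was 1.68, against 0.11 in batch 3.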

How the data were processed

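The deposited table held log2 expression values of 35556 transcript clusters on 68 Affymetrix mouse gene arrays, made by the authors with RMA through oligo, per the submitters' processing notes. The sources used here give neither tool versions nor the annotation build, and no scanner intensities were analysed here. Clusters were named through the platform's annotation and RefSeq (GRCm38.p6). The 21789 clusters with 1 symbol, brightest cluster per gene, gave 19938 genes.

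Differences were fitted with limma 3.58.1 (R 4.3.3; lmFit, eBayes) on 59 arrays with a term per group and per batch (35 columns, 24 residual and 6 prior degrees of freedom). Batch 4 was left out of the main model. It holds neither line, but this does not set it apart, since other batches without either line were kept. The reason was that batch 4 stands apart in Hox genes by an earlier account of these data. Through lines it shares with batches 2 and 3 it would also have entered the fitted difference. The choice affects the result: with all 68 arrays, batch 4 included, 94 genes were called against YFP, and 206 in the main model. In this fit the Klf6 minus YFP difference weights the Klf6 arrays 0.48 and 0.52 and the YFP arrays of batches 2 and 3 -0.30, -0.26 and -0.26, and the YFP array of batch 1 -0.18, with arrays of 3 other lines linking batches 1 and 2. Adjusted p-values are two-sided and Benjamini-Hochberg adjusted over 19938 genes, with 0.05 as threshold; ± is a standard error. Signals are log2, differences are differences of log2 values, and folds are their antilogs. Precision is limited by the number of arrays. The fit was tested on simulated data.

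Members and lists were chosen with earlier results of these data known. The genes named are Klf6, the 10 largest called rises and falls with the same sign in both batches, up to 4 called members per list, all measured phrenic and Kruppel-like genes, and in the other comparisons Klf5 and the 3 largest called rises and falls. Clone-named, predicted and olfactory receptor genes were only counted. Cpeb1, Dysf, Insl6, Pou3f4, Grb14, P2rx4, Slc7a5, Gria3, Grik2, Gabrb2, Cacng7, Shank1, Asns, Ddit3, Foxa2, Spon1, Mcm5 and general markers were named after their values were seen. At most 1 gene had identical values on a pair of the 5 arrays.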

Additional observations from a re-analysis of the deposited data

Results flagged for a closer look

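Kcnk9 stood apart within the YFP group. Its gap statistic over the 4 YFP arrays of the CD2 reporter was 0.873, above Dixon's critical value for 4 values, since the second YFP array of batch 3 read 12.41 and the others 11.57 to 11.68. Chance marks about 1 in 20 such groups, and 85 genes were examined.

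Grb14 differed between batches. Its Klf6 minus YFP difference was 1.57 lower on the log2 scale in batch 3 than in batch 2 (-1.57, adjusted p = 0.0150 by limma).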

How the results depend on the processing

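The set of arrays, the batch term and single arrays moved the counts. For Klf6 against YFP (206 called) the count was 94 with all 68 arrays, 9 with the CD2 arrays of batches 1 to 3, 0 with the 5 arrays alone and 63 without a batch term. Leaving out 1 array gave 84 (without the batch 3 Klf6 array), 86 (without the batch 2 Klf6 array), 122, 142, 338 and 491 (without the batch 2 YFP array). The share of higher calls was 57.8%, and 64.9%, 77.8% and 73.0% with all 68 arrays, CD2 arrays and no batch term. Against the 13 other lines (806) the count was 506 with all 68 arrays, 115 with the CD2 arrays and 267 without a batch term, and 68 (without the batch 3 Klf6 array) to 1222 (without the first batch 3 YFP array) with 1 array left out. Against Klf5 (47) it was 13 with the CD2 arrays, and 39 to 65 with 1 array left out. The batch difference (62) gave 2 with all 68 arrays and 1 with the CD2 arrays. Renewed quantile normalization, median centring, omission of genes under a mean of 6, averaging of clusters and, chosen after seeing the data, omission of batch 0 or of 2 Notch-pathway lines kept counts within 1.5 times. The Klf6 transcript stayed uncalled under every alternative run. Of 42 named called genes 9 kept the call with the CD2 arrays of batches 1 to 3, 23 with all 68, 11 without the batch 2 Klf6 array, 13 without that of batch 3, and 0 with the 5 arrays; none reversed. The lines share only the replicate number 2, so the number cannot serve as a block across them; as a replicate block chosen after seeing the data, each Klf6 array was paired with the YFP array numbered 2 of its batch, without the other YFP arrays. That gave 173 calls by limma (82 higher, 91 lower) and a Klf6 transcript difference of -0.30 (adjusted p = 0.322). Of the 42 named genes 29 kept the call, while Slc1a4, Slc7a1, Slc7a5, Atf4, Trib3 and P2rx3 lost it (adjusted p = 0.217, 0.133, 0.182, 0.104, 0.198 and 0.187). Foxa2 and Spon1 passed (0.0109 and 0.0305). The YFP arrays kept had the higher floor plate means, 10.13 in batch 2 and 9.90 in batch 3. Those left out had 9.20 in batch 3 and 8.76 in batch 1, so these 2 calls are no separate support.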

Other observations

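Several further genes rose in the Klf6 line, with less support than the 4 that held without any 1 array: Tgfb1i1, Ehd2 and Pmp22 lost their calls without 1 Klf6 array (adjusted p = 0.0516, 0.116 and 0.374). Tgfb1i1, a focal adhesion adaptor, read 11.44 and 11.04 in Klf6 cells, against 10.62, 10.16 and 10.52 in YFP cells (0.72 ± 0.12, adjusted p = 0.00207 by limma). Ehd2, a protein of the necks of caveolae, read 9.13 and 9.44 in Klf6 cells, against 8.32, 8.59 and 9.04 in YFP cells (0.80 ± 0.14, adjusted p = 0.00348), and ranked the third in batch 3, where another line reached 10.41. Anxa7 was the only called member of 12 annexins against YFP (0.48, adjusted p = 0.0132), where 0.597% of all genes rose. Against the 13 other lines Anxa2, Anxa4, Anxa5 and Anxa7 rose, where 1.85% of all genes did. The medians of the family in the 2 comparisons were 0.30 and 0.52. Pmp22, a myelin membrane protein also made outside glia, rose by 1.04 ± 0.26 against YFP (adjusted p = 0.0408), but lay second in batch 2 and the third in batch 3 among CD2 arrays. Pck2, the mitochondrial form of an enzyme of gluconeogenesis, rose by 0.93 ± 0.24 (adjusted p = 0.0475; 0.774 without the batch 3 Klf6 array). Hhip, an inhibitor that binds Shh, did not pass the test against YFP (1.39 ± 0.36, adjusted p = 0.0501) and rose by 1.41 ± 0.30 against the 13 other lines (adjusted p = 0.00688). These genes were chosen after their values were seen.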
